A study of Mus musculus with 7 samples.

Results

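The 8 genes described here write, copy and remove methyl groups on DNA: the methyltransferase genes Dnmt1, Dnmt3a and Dnmt3b, their cofactor genes Dnmt3l and Uhrf1, and the dioxygenase genes Tet1, Tet2 and Tet3. They were chosen by symbol, and all 8 were found among the 22180 genes measured by a probeset with exactly 1 gene symbol. Each had 1 such probeset, so no choice between probesets was needed. Their RNA was measured in G1E, a mouse erythroid cell line derived from cells without functional GATA1, which grows as immature erythroid precursors. Control cells, labelled Lockd WT, were profiled on 3 arrays, and cells in which CRISPR/Cas9 had been used to delete Lockd on 4. All 7 samples were total RNA of cultured cells in G1E medium, and the design text calls them clones of the line. Lockd encodes a long non-coding RNA beside Cdkn1b, which encodes the cell cycle inhibitor p27. The deletion removes both the DNA and its transcript, and with these 2 groups their effects cannot be told apart. Any differences between clones cannot be told apart from an effect of the deletion either.

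In mammals a methyl group is placed mostly on the cytosine of a CpG dinucleotide. DNMT3A and DNMT3B place it on unmethylated DNA, and DNMT1, guided by UHRF1 to half-methylated sites behind the replication fork, copies it to the new strand. TET enzymes oxidise it, which leads to its loss by dilution or by base excision repair. Erythroid maturation is accompanied by wide loss of DNA methylation, and DNMT3A and TET2 are often altered in human myeloid disease.

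The promoters of these genes are themselves made of the substrate to differing degrees, as 3 of them show. Tet2 and Tet3 were the members with lower mean values in deletion cells, and Dnmt3l was the gene whose windows all held few CG. The windows run from 250 bases before to 50 after an annotated start, are taken from RefSeq on build GRCm38.p6, are written 5′ to 3′ along the gene, and have every CG in capitals.
Tet2 (chr3:133544341-133544640, minus strand): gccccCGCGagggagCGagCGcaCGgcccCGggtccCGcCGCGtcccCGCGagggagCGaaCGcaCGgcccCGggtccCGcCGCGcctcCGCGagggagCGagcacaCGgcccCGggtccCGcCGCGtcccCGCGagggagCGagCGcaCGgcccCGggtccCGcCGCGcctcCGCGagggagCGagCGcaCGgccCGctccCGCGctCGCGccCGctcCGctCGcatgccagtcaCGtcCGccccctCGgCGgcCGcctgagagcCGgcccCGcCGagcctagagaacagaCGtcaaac
Tet3 (chr6:83441629-83441928, minus strand): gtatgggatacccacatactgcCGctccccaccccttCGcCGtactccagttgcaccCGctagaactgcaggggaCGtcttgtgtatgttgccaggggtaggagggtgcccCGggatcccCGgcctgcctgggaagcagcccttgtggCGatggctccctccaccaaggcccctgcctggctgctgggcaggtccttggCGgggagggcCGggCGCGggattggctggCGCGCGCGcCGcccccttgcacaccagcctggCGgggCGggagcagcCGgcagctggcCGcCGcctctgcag
Dnmt3l (chr10:78042037-78042336, plus strand): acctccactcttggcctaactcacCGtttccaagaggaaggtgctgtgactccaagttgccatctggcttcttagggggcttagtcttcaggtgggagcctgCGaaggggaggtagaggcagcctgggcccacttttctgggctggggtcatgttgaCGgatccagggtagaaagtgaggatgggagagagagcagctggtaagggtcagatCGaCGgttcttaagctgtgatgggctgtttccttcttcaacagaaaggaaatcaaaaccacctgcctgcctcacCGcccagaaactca

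The motif searched was CG, which reads the same on both strands and cannot overlap itself. Tet2 holds 57 of them in its 300 bases, a count reached by 0.152% of the 32851 promoter windows of that length. Much of the Tet2 window is a short, nearly identical unit rich in CG repeated in tandem. Tet3 holds 22, reached by 23.1% of windows, and the Dnmt3l window shown holds 6, reached by 56.4%. The other Dnmt3l starts hold 4 and 3, and the median of all windows is 7. Dnmt3b has 30 CG in its single window and Tet1 has 17. The genes with several annotated starts differ within themselves, with 33, 12 and 2 at the Dnmt1 starts and 33 and 12 at those of Uhrf1. Dnmt3a has 46, 47 and 18, and its windows with 46 and 47 overlap. All 8 genes had at least 1 window in the table, 15 in all. Methylation itself was not measured, and which start the cells use is not shown by these arrays.

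**Figure D1:**
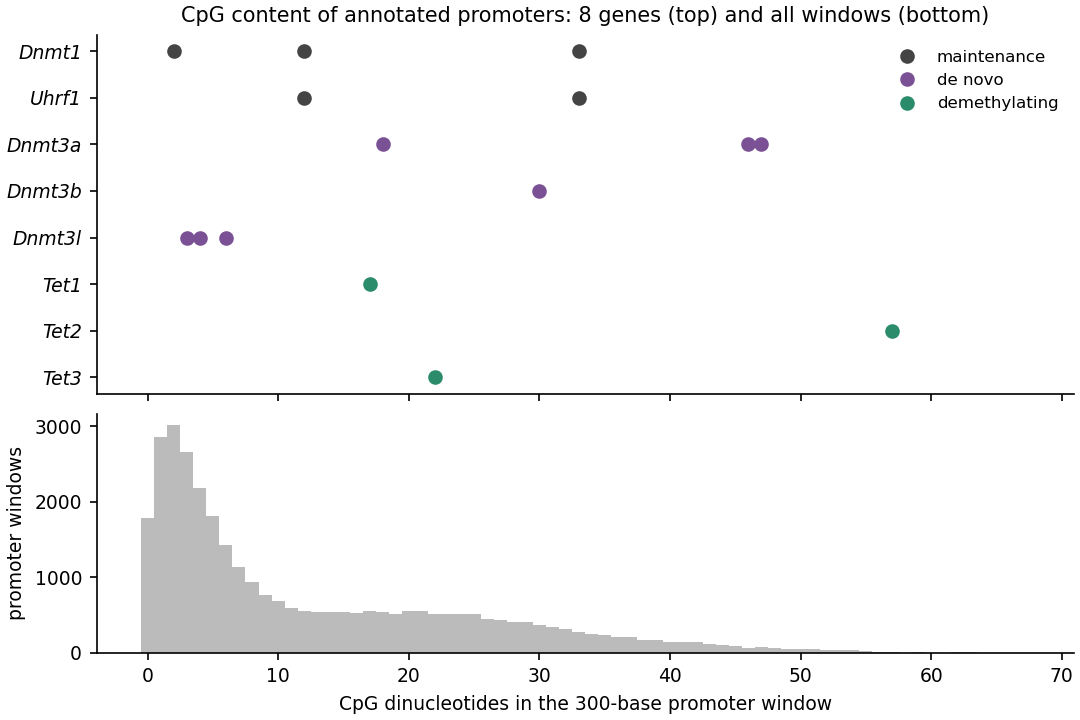
CG counts of the annotated promoters. The top panel gives each promoter window of the 8 genes as a point (x, CG dinucleotides in the 300 bases; y, gene; colour, class), and the bottom panel the number of windows with each count over all 32851. Tet2, at 57, lies at the far right of the distribution, and the 3 Dnmt3l windows, at 3 to 6, lie below the median of 7.

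The deletion was visible in the targeted gene. Lockd read 7.89, 8.04 and 7.80 on the control arrays and 5.09, 5.15, 4.17 and 5.15 on the deletion arrays, and Cdkn1b was lower by 1.14 (SE 0.10) on the log2 scale. The 2 probesets of these genes were the only ones called in limma, a linear model with a moderated spread, at a Benjamini-Hochberg adjusted p under 0.05, which is 0.0085% of 23521 tested, and 8 of 16 alternative settings called 0. The 13 measured erythroid markers had a mean level of 10.16 to 10.38 on control and 10.12 to 10.41 on deletion arrays. Lists of myeloid, lymphoid, mast cell, megakaryocyte and stromal markers averaged between 4.90 and 6.03, but single members were bright, among them the mast cell genes Cpa3, at 9.53 to 11.97, and Ms4a2, at 7.55 to 10.05, and the platelet gene Gp9, at 7.56 to 8.22. Levels of different probesets are not on a common scale, so these values describe the arrays and do not settle the cell type. A principal component analysis set control replicate 2 apart from the other arrays on its leading axis (29.9% of the variance).

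None of the 8 genes passed the test between deletion and control cells, where the whole table gave the 0.0085% above. The smallest adjusted p of the 8 in limma was 0.999. At an unadjusted limma p under 0.05 the count was also 0 of 8, against 4.61% of all genes, 2.37% lower and 2.24% higher, and it was 1 under 6 of the 16 alternative settings. Their differences ran from -0.14 for Tet2 to 0.15 for Tet1 on the log2 scale, and their 95% intervals together covered -0.29 to 0.48. The median size of the difference, direction aside, was 0.09 for the 8 genes and 0.07 for all genes. The smallest value an exact two-sided permutation test can give with 3 against 4 arrays is p = 0.0286, from 35 splits.

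**Figure D2:**
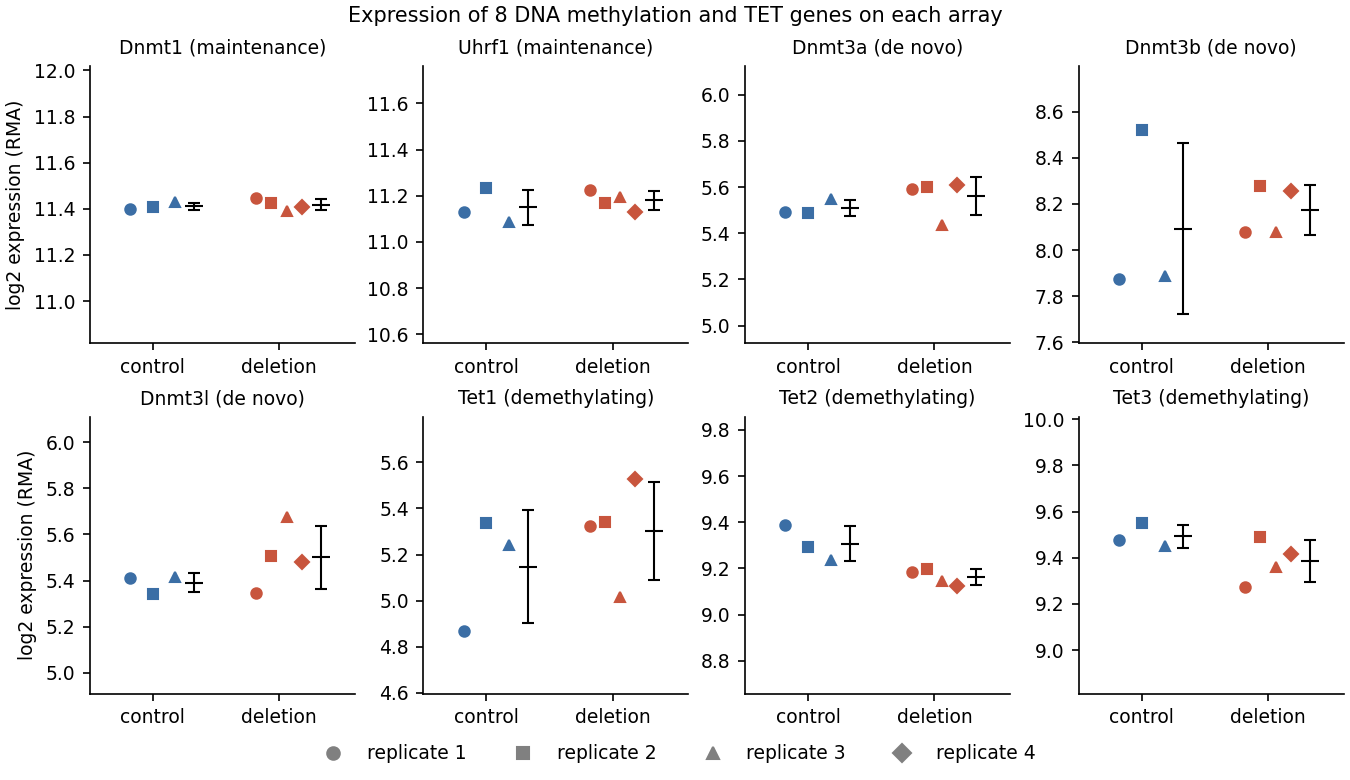
Log2 expression of the 8 genes on each array. Each panel is 1 gene (y, RMA log2 value over a span of the same height in every panel; x, group), symbols give the replicate, and the bar at the right of each group is its mean ± SD (n = 3 control, n = 4 deletion). Tet2 is the only panel in which the groups are separate, and control replicate 2 stands far above the other control arrays in the Dnmt3b panel.

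The maintenance genes had the differences nearest to 0. Dnmt1, the copying methyltransferase, read 11.40, 11.41 and 11.43 on control and 11.45, 11.42, 11.39 and 11.41 on deletion arrays. The groups overlapped and the 7 arrays lay within 0.057 of each other, with a difference of 0.0056 (SE 0.058, 95% interval -0.13 to 0.14). In linear terms the interval reached from -8.41% to 10.03%. Its spread within groups was in the lowest 0.248% of all genes, with a residual SD of 0.021. The SE from limma was larger, since it is moderated by the spread of all tested probesets. The sign of so small a difference had no hold, and it turned with each array's median subtracted, at -0.018.

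Uhrf1, which brings DNMT1 to newly replicated DNA, read 11.13, 11.23 and 11.09 on control and 11.22, 11.17, 11.20 and 11.13 on deletion arrays. Control replicates 2 and 3 formed the top and the bottom of all 7 values, with the deletion arrays between them. Control cells averaged 11.15 ± 0.076 (SD, n = 3) and deletion cells 11.18 ± 0.040 (SD, n = 4). The difference was 0.03 (SE 0.066, 95% interval -0.12 to 0.18). Pcna, the sliding clamp to which DNMT1 binds at the fork, differed by 0.0060 (SE 0.061), and Cdca7, a partner of the remodeller HELLS in keeping DNA methylated, by 0.12 (SE 0.070). Neither passed the test.

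The de novo genes had slightly higher means in deletion cells, without passing. Dnmt3a read 5.49, 5.49 and 5.55 on control and 5.59, 5.60, 5.44 and 5.61 on deletion arrays. Of all 7 values, deletion replicate 3 gave the lowest and the other 3 deletion arrays the highest, so the groups overlapped through that array alone. The difference was 0.05 (SE 0.069), or 0.09 without deletion replicate 3. The Dnmt3a probeset lay below the median level of all genes, 5.72. RMA values carry no detection call at any level, so they do not show whether its RNA was detected.

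Dnmt3b, the other de novo enzyme, varied most among the de novo genes. It read 7.87, 8.52 and 7.89 on control and 8.08, 8.28, 8.08 and 8.26 on deletion arrays. Control replicate 2 was above every other array, and control replicates 1 and 3 were below every deletion array. The control mean, 8.09 ± 0.37 (SD, n = 3), was therefore close to the deletion mean, 8.17 ± 0.11 (SD, n = 4). They differed by 0.08 (SE 0.16, 95% interval -0.28 to 0.44). Its residual spread exceeded that of 91.7% of genes. Without control replicate 2 the difference was 0.29 (SE 0.087), and limma's adjusted p was 0.938 (unadjusted 0.0110). Without control replicate 1 or 3 it was -0.03 or -0.02. The part that whatever sets control replicate 2 apart has in this was not tested.

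Dnmt3l, the cofactor without catalytic activity that is best known from germ cells and embryonic stem cells, read 5.41, 5.34 and 5.42 on control and 5.35, 5.50, 5.68 and 5.48 on deletion arrays. Deletion replicate 1 lay among the control arrays and the other 3 above them. The difference was 0.11 (SE 0.085, 95% interval -0.08 to 0.30), and 0.05 without deletion replicate 3, the highest array. This probeset also lay below the median level. Of 8 markers of pluripotency, the cell state in which Dnmt3l and Dnmt3b are best known, 7 had higher means in deletion cells and 0 passed. Over all 22180 genes 11588 were higher. The same held for 9 of 11 stromal and endothelial markers and for 4 of 13 erythroid markers, so the lean was not particular to pluripotency markers. The mean level of the pluripotency markers was 5.10 to 5.44 on control and 5.42 to 5.49 on deletion arrays. The low end came with Dppa4, which read 9.08, 9.36 and 6.34 on control and 8.79 to 8.91 on deletion arrays. Dppa4 and Gdf3 exceeded the median gene level and the other 6 markers did not, with Pou5f1 and Nanog at 4.97 and 4.52 in control cells. Their part in the values of Dnmt3b and Dnmt3l was not tested.

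Of the demethylating genes, Tet2 and Tet3 had lower means in deletion cells and Tet1 a higher one. Tet2, the family member best known from blood cells, read 9.39, 9.29 and 9.24 on control and 9.18, 9.20, 9.15 and 9.13 on deletion arrays. Every deletion array lay below every control array, which makes Tet2 the 1 member of 8 whose groups did not overlap. The share of all genes whose groups did not overlap was 5.19%, with 2.54% lower in deletion cells and 2.65% higher. Tet2 averaged 9.31 ± 0.077 (SD, n = 3) in control cells against 9.16 ± 0.033 (SD, n = 4) after deletion. The difference was -0.14 (SE 0.065, 95% interval -0.29 to 0.0048). In linear terms the Tet2 difference was -9.50%, with an interval from -18.4% to 0.331%.

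This difference did not pass in limma, where p was 0.0562 before and 0.999 after Benjamini-Hochberg adjustment. The exact permutation test gave p = 0.0286 for Tet2, the smallest it can give, and 0.229 after adjustment over the 8 genes. A gene alone at that floor cannot fall under 0.05 once adjusted over 8 genes, so the adjusted value decides nothing. The unadjusted value is no separate support, since with groups that do not overlap no other split gives a larger difference in that direction. The gap between the groups was narrow, from 9.24 on the lowest control array to 9.20 on the highest deletion array, and it closed when each array's median was subtracted. Control replicate 1 carried part of the difference, which was -0.10 without it.

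Tet3 read 9.48, 9.55 and 9.45 on control and 9.27, 9.49, 9.36 and 9.42 on deletion arrays. Deletion replicate 2 lay among the control arrays and the other 3 below them. The difference was -0.11 (SE 0.073, 95% interval -0.27 to 0.059), and leaving out each array gave -0.14 to -0.07, the latter without deletion replicate 1. The exact permutation test gave p = 0.143 and 0.571 adjusted over the 8 genes.

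Tet1, the family member best known from embryonic stem cells, read 4.87, 5.34 and 5.24 on control and 5.32, 5.34, 5.02 and 5.53 on deletion arrays. The groups overlapped broadly, with control replicate 1 lowest and deletion replicate 4 highest. The difference of 0.15 (SE 0.14, 95% interval -0.18 to 0.48) had the highest point estimate of the 8 genes but rested on single arrays, since it was 0.01 without control replicate 1, 0.08 without deletion replicate 4 and 0.25 without control replicate 2 or deletion replicate 3. The Tet1 probeset lay below the median level of all genes, as did those of Dnmt3a and Dnmt3l.

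**Figure D3:**
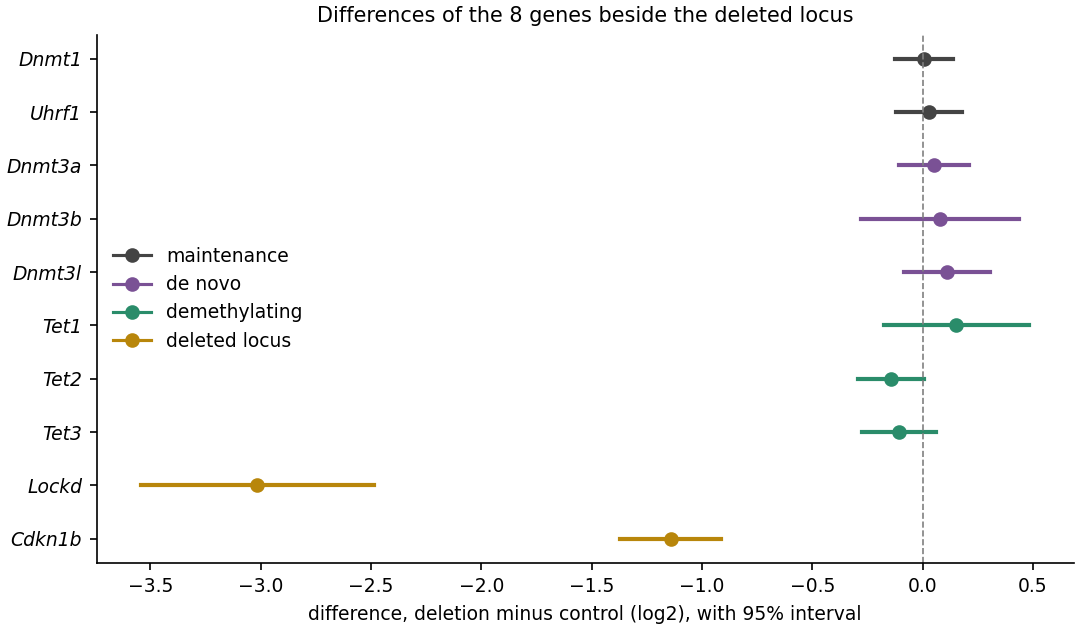
Difference of each of the 8 genes and of Lockd and Cdkn1b between the groups (x, deletion minus control on the log2 scale; points, estimates; lines, 95% intervals of limma; colour, class). All 8 intervals include 0 and lie between -0.29 and 0.48, while that of Lockd runs from -3.54 to -2.49.

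Set side by side, the classes had median differences of 0.02 for the 2 maintenance genes, 0.08 for the 3 de novo genes and -0.11 for the 3 demethylating genes, where the median over all genes was 0.0054. The median of a class varied between arrays of the same group with an SD of 0.030, 0.065 and 0.039 in that order. The de novo differences ran from 0.05 to 0.11 and all 3 were above 0, while the demethylating differences ran from -0.14 to 0.15. Of the 8 genes, 6 were higher and 2 lower, and over all genes 11588 were higher and 10592 lower. Leaving out each array gave 0.04 to 0.11 for the de novo median and -0.14 to -0.07 for the demethylating one. Whether the classes differ from each other was not tested.

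**Figure D4:**
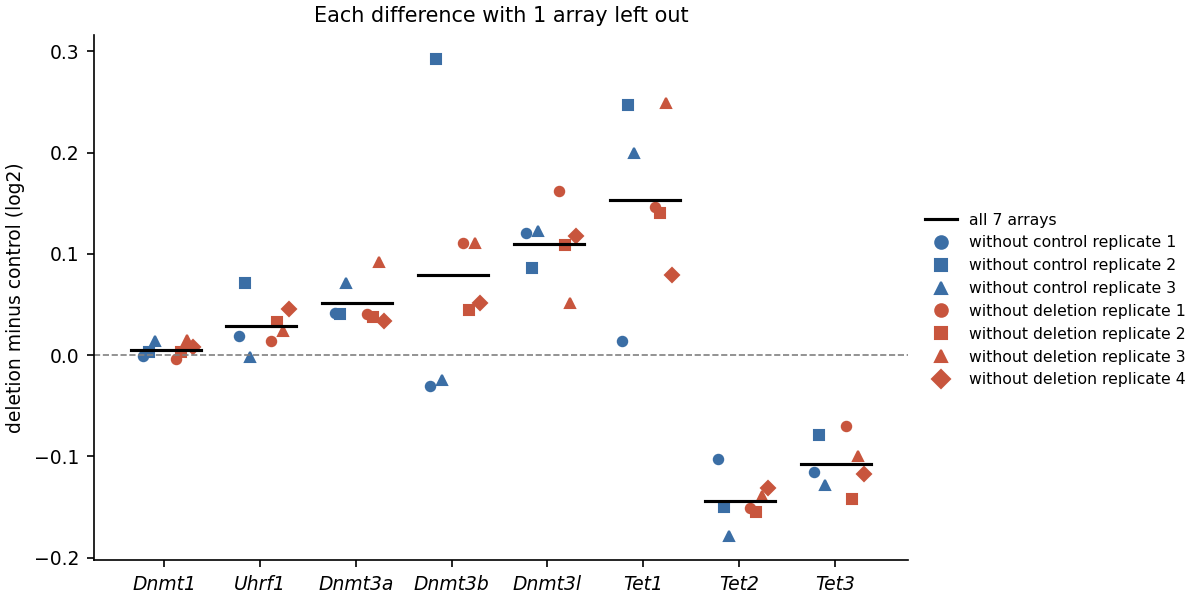
Difference of each gene with each array left out in turn (y, deletion minus control on the log2 scale; x, gene; symbols, the array left out; black bars, the value with all 7 arrays). Dnmt3b rises to 0.29 without control replicate 2, Tet1 drops to 0.01 without control replicate 1, and the values of Tet2 and Tet3 stay between -0.18 and -0.07.

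Genes that act with these enzymes were followed in 8 lists, with 142 genes measured from 167 listed symbols. None of the 142 passed in limma. Before adjustment 3 reached p under 0.05, 1 lower and 2 higher, where 4.61% of all genes did. The groups did not overlap for 4 of them, 2 lower and 2 higher, against 5.19% of all genes. The medians of the lists ran from -0.04 for readers of methylated CpG to 0.03 for the S-adenosylmethionine cycle, beside 0.0054 for all genes.

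Readers of methylated DNA, the methyl-CpG binding proteins and their zinc finger counterparts, were lower in 5 of 9 members and 0 passed. Mbd1 differed by -0.09 (SE 0.071) and Zbtb33, the Kaiso gene, by -0.10 (SE 0.087), the members with the smallest p. Mbd2, the brightest, averaged 10.61 in both groups. Partners and regulators of the methyltransferases were higher in 15 of 21 members, with 0 passing and a median of 0.02. Hdac2, a histone deacetylase gene, was the list's 1 member without overlap, with control arrays at 10.44 ± 0.069 (SD, n = 3) and deletion arrays at 10.54 ± 0.038 (SD, n = 4).

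Among partners of TET and other CXXC domain proteins, 5 of 9 were lower and 0 passed. Cxxc5, whose product binds unmethylated CpG and is known to interact with TET2, gave the greatest difference of the 142 genes. It read 7.02, 6.75 and 6.77 on control and 7.54, 8.10, 6.88 and 7.89 on deletion arrays. Deletion replicate 3 lay among the control arrays and the other 3 well above them, for a difference of 0.76 (SE 0.26). Limma's adjusted p was 0.999 (unadjusted 0.0172). Ogt, the O-GlcNAc transferase gene whose product binds TET2 and TET3, differed by -0.09 (SE 0.065). Kdm2a, the gene of a CXXC domain protein and named after its values were seen, was lower without overlap, at -0.08 (SE 0.060).

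Genes of oxidised base removal and base excision repair, through which TET products can be replaced by cytosine, were lower in 12 of 23 members, with 0 passing and a median of -0.0022. Mutyh, a glycosylase gene that acts on adenine opposite an oxidised guanine rather than on TET products, read 7.34, 7.32 and 7.07 on control and 7.60, 7.48, 7.48 and 7.57 on deletion arrays. Every deletion array was above every control array, and the difference was 0.29 (SE 0.084). Limma's adjusted p was 0.999 (unadjusted 0.00786). Gadd45g, a stress gene linked to repair-based demethylation, differed by -0.21 (SE 0.093). Parp1, the brightest member, differed by 0.01.

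The metabolites that these enzymes use were followed through their genes. In the methionine and S-adenosylmethionine cycle, which supplies the methyl donor, 10 of 15 members were higher and 0 passed, with Ahcy, the gene of the enzyme that clears the inhibitory product, at 0.12 (SE 0.071). Mtap, of methionine salvage, differed by 0.13 (SE 0.093) and Ahcyl1, the brightest member, by -0.03. In the metabolism of 2-oxoglutarate, the TET cosubstrate, and of its competitors succinate and fumarate, 13 of 16 members were lower and 0 passed. All 16 lay above the median level, the median difference was -0.02, and the differences ran from -0.11 for Idh1 to 0.05, with Dlst at -0.06 and Got2, the brightest member, at -0.02.

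Genes often kept silent or marked by DNA methylation were listed as a readout at the RNA level. Of 18 germline genes silenced by promoter methylation, 0 exceeded the median gene level, 11 were lower, 7 higher and 0 passed. Sycp1, of the meiotic synaptonemal complex, differed by -0.23 (SE 0.11) and Hormad1 by -0.11 (SE 0.063), while the brightest member, Tex14, differed by -0.01. Of 31 imprinted genes, which are expressed by parental origin, 14 were lower, 17 higher and 0 passed. Igf2r had an unadjusted limma p of 0.0488 at -0.20 (SE 0.089), and Cdkn1c, a CDK inhibitor gene of the same family as Cdkn1b, differed by 0.17 (SE 0.090). H13, the brightest of the list, differed by -0.01.

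**Figure D5:**
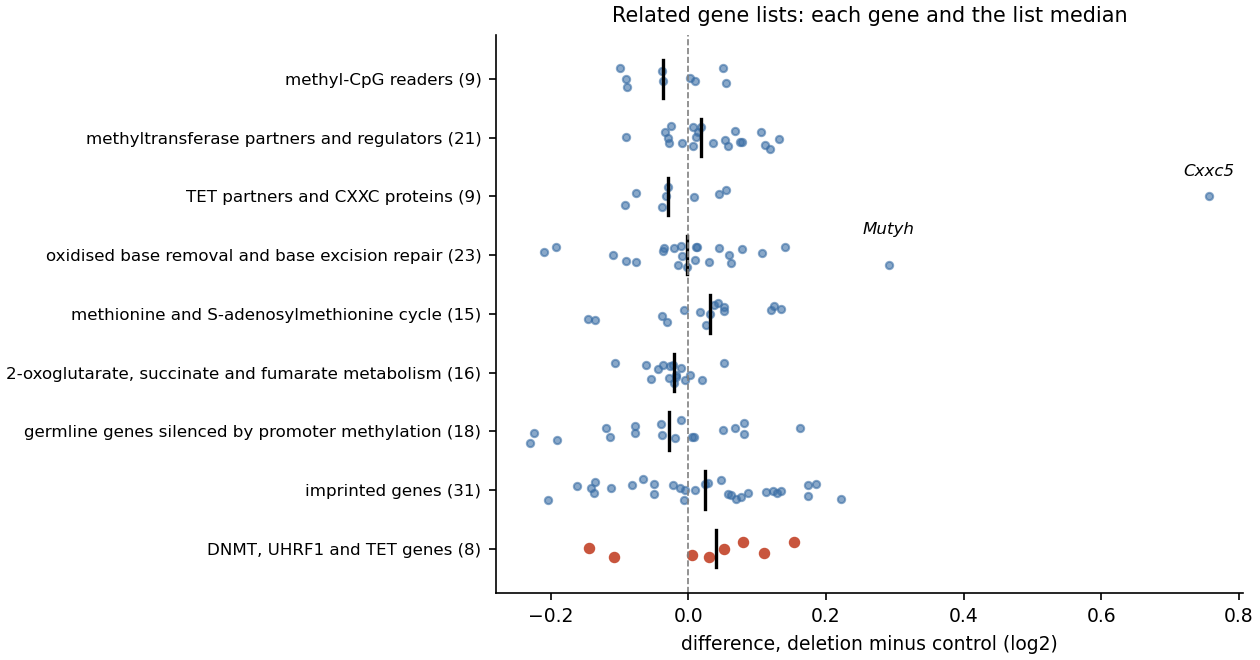
Differences of the genes in 8 related lists and of the 8 DNMT, UHRF1 and TET genes (x, deletion minus control on the log2 scale; y, list with its number of measured genes; points, genes, spread vertically for legibility; black bars, medians). The list medians lie within 0.04 of 0, and Cxxc5 at 0.76 and Mutyh at 0.29 stand to the right of the other genes.

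Likeness of pattern was described by Pearson's r over the 7 arrays after each group mean was subtracted, for the 5 members above the median level and 10383 candidate genes each. The nearest gene was Arrdc1 for Dnmt1 (0.990), Mrpl32 for Uhrf1 (0.991), Rrp9 for Dnmt3b (0.988), Gng2 for Tet2 (0.996) and Fbrsl1 for Tet3 (0.999). The next nearest were Idh2 (0.985), Cep19 (0.983), Tufm (0.983), Zfp276 (0.988) and Tmem222 (0.997) in the same order. All values share the quality of the same 7 arrays, and how often chance gives values this high among so many candidates was not tested. Among the members themselves the same measure ran from -0.77 for Dnmt1 with Dnmt3l to 0.75 for Dnmt1 with Dnmt3a.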

How the data were processed

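Per the submitters' processing notes, the authors ran RMA in Expression Console (Affymetrix) on Mouse Gene 2.0 ST arrays and deposited 1 log2 value for each probeset and array. RMA corrects background, equalises the arrays and summarises each probeset. The sources used here do not give the software version, library files or genome build. Values between 1.87 and 14.01 set the scale as log2.

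Groups came from sample titles. The design text calls the samples clones, but nothing says whether each replicate was a separate clone or culture. The p-values therefore cover the spread between these arrays, part of which may be technical. The number of arrays limits the precision.

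Of 41345 probesets, 23521 with exactly 1 symbol in the platform annotation entered a limma 3.58.1 fit in R 4.3.3 (lmFit, eBayes, two-sided, Benjamini-Hochberg, threshold 0.05), with both groups in one fit and no filter or covariate. A gene with several probesets was represented by the one with the highest mean. Levels of different probesets cannot be compared. The fit was tested on simulated data. The alternatives tried were all probesets, filters on dim probesets, the variance model, array weights, 2 scalings, each array left out, and blocks by replicate number.

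Members and lists were chosen with earlier results of these data known. Named by rule were all 8 members, Lockd, Cdkn1b, the 2 members of each list with the smallest p and its brightest member. The rule also took the 2 genes of most like pattern. Kdm2a and the cell type markers Cpa3, Ms4a2, Gp9, Dppa4, Gdf3, Pou5f1 and Nanog were named outside it. Symbols were checked against RefSeq on GRCm38.p6, where 23328 tested probesets had a gene ID and all had an equal symbol.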

Additional observations from a re-analysis of the deposited data

Results flagged for a closer look

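Among the 33 named genes tested, 6 had 1 deletion array set apart from the other 3 by Dixon's test at 95%. The test weighs the gap against the range of the 4 arrays, so a flagged gap can be small. Its nominal rate is about 1 in 20 groups, but the share over all genes was not counted. Some of the 33 were named for a small p, so the count does not show an excess. Dnmt3a read 5.44 on deletion replicate 3, and 5.59 to 5.61 on the others. Lockd read 4.17 on that array against 5.09 to 5.15, Parp1 11.49 against 11.41 to 11.42, and Mtap, a gene of methionine salvage, 4.63 against 4.72 to 4.73. On deletion replicate 4, Hormad1 read 2.76 against 2.87 to 2.89 and Tex14 5.27 against 5.33 to 5.34.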

How the results depend on the processing

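None of the 8 genes passed in limma under any of the 16 alternatives, nor did any of the 142 related genes, and the class medians moved by less than their spread between arrays. Medians of the related lists moved by more than that in 16 of 127 cases and stayed between -0.08 and 0.07. The count of probesets called, 2, fell to 0 with all probesets tested, with a replicate block by title numbers or by description numbers, and without 5 of the 7 arrays in turn (range 0 to 2). Lockd differed by -3.02, -3.10 and -2.80 in those 3 fits, past the threshold in none, and by -3.10 to -2.78 with each array left out. Same-numbered samples did not deviate together (correlations of 0.02, 0.06 and -0.10 by title, -0.17 and -0.10 by description), so the numbers were not taken as pairs. Groups without overlap numbered 0 of 8 with array medians subtracted and 1 to 3 with each array left out, when 8.09% to 15.0% of all genes also had none: Uhrf1 and Dnmt3b joined Tet2 without control replicate 2, Dnmt3l without deletion replicate 1, Tet3 without deletion replicate 2 and Dnmt3a without deletion replicate 3. Direction turned for Dnmt1 (-0.018 with array medians subtracted, -0.0039 to 0.015 with each array left out), Uhrf1 (-0.0022 to 0.071) and Dnmt3b (-0.031 to 0.29, and -0.026 with the replicate block by description numbers). The cause was not tested. The direction of Dnmt3a, Dnmt3l, Tet1, Tet2 and Tet3 did not turn under the alternatives in which each was tested, but sizes moved by over 1.5 times. With the replicate block by description numbers Tet2 was -0.076, Dnmt3l 0.044, Tet1 0.044 and Dnmt3a 0.078. Dnmt3a was 0.021 with quantile normalization and 0.028 with array medians subtracted. Tet1 was 0.079 with the block by title numbers and 0.25 with array weights. With each array left out the ranges were 0.034 to 0.092 for Dnmt3a, 0.052 to 0.16 for Dnmt3l, 0.014 to 0.25 for Tet1, -0.18 to -0.10 for Tet2 and -0.14 to -0.070 for Tet3. Tet2 had an unadjusted limma p under 0.05 in 5 of 16 alternatives, with p from 0.0266 to 0.606 over all of them, and an adjusted p of 0.683 or more. An alternative over several probesets of a gene was not run, because each of the 8 genes had 1. Dnmt3a, Dnmt3l and Tet1 were dim, which limits what their values can show.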
